A study of Sus scrofa with 6 samples.

Results

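The genes described here encode 4 EHD proteins (EHD1, EHD2, EHD3 and EHD4) and 6 proteins of the caveola coat and neck (CAV1, CAV2, CAVIN1, CAVIN3, PACSIN2 and PACSIN3). They are 10 of the 31908 pig gene IDs in the deposited table, and all 10 were found by the gene name given there. They were chosen by their TPM in these CON and CDCA libraries, the contrast described below, so their own differences are given as a description. No p-value of a chosen gene is printed, and nothing is read from the counts of calls among them. RNA was sequenced from IPEC-J2, a line of epithelial cells from the pig jejunum, in 6 bulk libraries. The CON group (n = 3) received PBS and the CDCA group (n = 3) received 50 μM chenodeoxycholic acid, a primary bile acid made in the liver, and both were collected after 24 h. No gene was deleted or introduced in either group. All libraries came from the same cell line, and the study calls the replicates biological, while the labels do not say whether they were separate cultures. The p-values below measure only the spread between these libraries.

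Caveolae are small flask-shaped pits of the plasma membrane that are built on a coat of caveolin and cavin proteins. CAV1 is the caveolin that most cells need to form them, and CAV2 joins CAV1 in hetero-oligomers. The cavins are soluble proteins that are recruited to caveolin-rich membrane, where CAVIN1 is needed for the coat and CAVIN2 and CAVIN3 join it as partners. The EHD proteins are dynamin-related ATPases that form rings on curved membrane. EHD2 sits at the neck of the caveola and restrains it from leaving the surface, while EHD1, EHD3 and EHD4 act mainly on recycling endosomes. The PACSINs carry an F-BAR domain, which bends membrane, and PACSIN2 takes part in shaping the caveola. Caveolae buffer the membrane of many cells, epithelial cells among them, against stretch, and they take part in lipid uptake and in signalling at the surface.

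Every level is in TPM, a share of a library's transcripts that is corrected for transcript length. Levels are set side by side between genes for the listed transcripts only, since a gene with transcripts left out of the table would be understated. The listed transcripts summed to between 351770 and 366073 TPM per library and not to 1000000, the table holds no read counts for its values, so no counting interval is given. A value of 0 was written as listed at 0, since genes used by every cell also stood near 0, such as the transferrin receptor gene TFRC at 0 to 0.93 TPM. The epithelial markers KRT8, KRT18, EPCAM and CLDN4 were present in all libraries, whereas CDH1, CLDN7 and VIL1 were under 1 TPM. The mRNAs encoded by mitochondrial DNA took 13.8 to 15.0% of the listed TPM in the CON group and 2.90 to 3.45% in the CDCA group, which leaves more of a fixed total for other genes. The part of this shift in the results below was not tested, beyond the rescaled values given with them.

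EHD2 stood out among the 4 EHD genes, because it made up most of their listed TPM in the CON group and little of it was left in the CDCA group. EHD2 (ENSSSCG00000023371, 1 listed transcript) was measured at 18.95, 21.67 and 18.93 TPM in the CON libraries. The level was 0.72 and 0.69 TPM in CDCA libraries 1 and 3, and EHD2 was listed at 0 in CDCA library 2. The groups lay far apart, with every CON library above 18 TPM and every CDCA library below 1 TPM. The mean was 19.9 ± 1.6 TPM in CON and 0.470 ± 0.41 TPM in CDCA (SD, n = 3 each), a ratio of CON to CDCA of 42.2. That ratio rests on CDCA values near 0, so its size is imprecise. The log2 fold change of EHD2 was -3.87 (SE 0.22) on the log2(TPM + 1) scale, which understates the change of a gene that ends near 0. In these bulk libraries, fewer cells with EHD2 and less EHD2 RNA per cell cannot be told apart.

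The position of EHD2 among all tested genes moved with its level. Genes were tested by limma on log2(TPM + 1) if their mean over the 6 libraries was at least 1 TPM, which 8708 genes reached. In the CON group EHD2 had a higher mean level than 75.8% of the tested genes, and in the CDCA group it was higher than 0.51% of them. EHD2 reached the limit of 1 TPM through the CON group alone and was chosen on this contrast, so nothing is read from its low place in CDCA. The log2 fold change of EHD2 was the second lowest of the 8708. Leaving out any of the 6 libraries gave a log2 fold change of -4.00 to -3.61. When the listed TPM were rescaled to 1000000, the log2 fold change was -4.74 with the mitochondrial mRNAs kept and -4.94 without them.

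The other EHD genes were weakly listed in both groups. EHD1 (ENSSSCG00000013017), which drives the exit of cargo from recycling endosomes, had 0.10, 0.43 and 1.29 TPM in the CON libraries. In the CDCA libraries EHD1 had 0, 0.19 and 0.29 TPM, which overlapped with the CON range. The mean of EHD1 was under the limit for testing. EHD3 (ENSSSCG00000035987), the closest relative of EHD1, was uneven within the CON group, with 4.35, 0 and 1.70 TPM. EHD3 was listed at 0 in all 3 CDCA libraries, so no fold is given, and CON library 2 did not differ from them. Its mean over the 6 libraries, 1.01 TPM, reached the limit for testing through CON libraries 1 and 3 only, and it was not called. EHD4 (ENSSSCG00000020666), an endosomal EHD protein, was listed at no more than 0.15 TPM in any library.

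The summed level of the 4 EHD genes was 23.4, 22.1 and 21.9 TPM in the CON libraries. In the CDCA libraries the sum was 0.72, 0.19 and 1.13 TPM, so the EHD sum followed EHD2. EHD2 contributed 81.0, 98.1 and 86.3% of the EHD sum in CON libraries 1, 2 and 3. In the CDCA group the sum was too small for such a share to be read. The highest level of any other EHD gene in a CDCA library was that of EHD1, at 0.29 TPM.

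**Figure D1:**
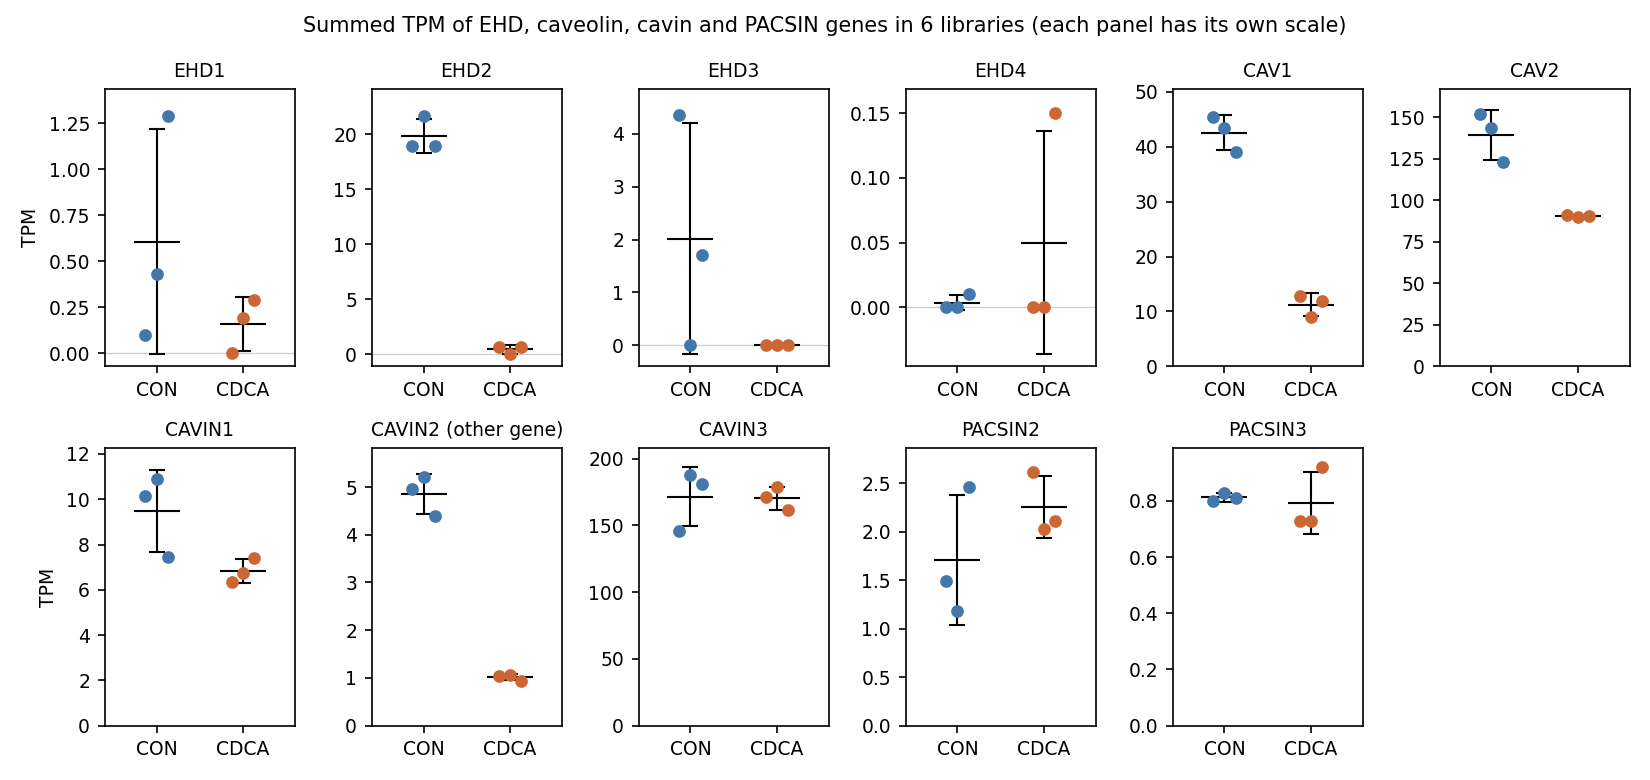
Summed TPM (y axis, linear, a scale of its own in each panel) of the 10 genes and of CAVIN2 in the CON and CDCA groups; points are libraries, the dash is the mean and the bar is the SD (n = 3). EHD2 lies at 18.93 to 21.67 TPM in CON and at 0 to 0.72 TPM in CDCA, CAV1 and CAVIN2 are also separate between the groups, and CAVIN3 and PACSIN2 overlap.

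The 2 caveolins differed in how much lower they were in the CDCA group. CAV1 (ENSSSCG00000016634), the caveolin on which the coat is built, had 45.34, 43.36 and 39.04 TPM in the CON libraries. The CDCA libraries had 12.85, 8.95 and 11.98 TPM, all of them far below the lowest CON value. The means of CAV1 were 42.6 ± 3.2 TPM in CON and 11.3 ± 2.0 TPM in CDCA (SD, n = 3 each), a ratio of CON to CDCA of 3.78 and a log2 fold change of -1.84 (SE 0.13). Nearly all of this lay in 1 of its 2 listed transcripts, whose mean was 41.3 TPM in CON and 10.3 TPM in CDCA. The other transcript had means of 1.30 and 0.943 TPM.

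CAV2 (ENSSSCG00000016635), which forms mixed oligomers with CAV1, was the more abundant caveolin in every library. Its levels were 151.96, 143.28 and 122.83 TPM in the CON libraries. In the CDCA libraries CAV2 had 90.95, 90.05 and 90.39 TPM, close together and below every CON value. The means were 139 ± 15 and 90.5 ± 0.45 TPM (SD, n = 3 each), and the log2 fold change of -0.61 (SE 0.077) was smaller than the limit of 1 in size set for a call. CAV1 and CAV2 are neighbours in the RefSeq gene order of Sscrofa11.1, and the next gene beside CAV1 is MET, a growth factor receptor, at 29.7 ± 2.8 TPM in CON and 33.4 ± 0.76 TPM in CDCA (log2 fold change 0.17, limma, Benjamini-Hochberg FDR = 0.084).

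The cavins did not move as a group. CAVIN1 (ENSSSCG00000035446), the cavin that the coat requires, had 10.14, 10.90 and 7.45 TPM in the CON libraries. The CDCA libraries had 6.36, 6.76 and 7.39 TPM, and the groups nearly met at CON library 3 and CDCA library 3. The means of CAVIN1 were 9.50 ± 1.8 and 6.84 ± 0.52 TPM (SD, n = 3 each), with a log2 fold change of -0.41 (SE 0.14). Of its 2 listed transcripts, the first had means of 8.50 TPM in CON and 5.37 TPM in CDCA. The second had 0.71, 2.27 and 0 TPM in the CON libraries and 0.89, 1.43 and 2.09 TPM in the CDCA libraries, which overlapped.

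CAVIN3 (ENSSSCG00000014633), a cavin that binds protein kinase C delta, was the most abundant of the 10 genes by mean level in both groups. Its levels were 146.18, 187.45 and 180.93 TPM in the CON libraries and 171.36, 178.75 and 161.57 TPM in the CDCA libraries. All 3 CDCA values lay inside the CON range. The means were 172 ± 22 and 171 ± 8.6 TPM (SD, n = 3 each), and the log2 fold change of -0.0009 (SE 0.097) had no stable sign: it was 0.02 when the listed TPM were rescaled to the same total.

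CAVIN2 was not among the 10 chosen genes but belongs to the same coat, where it aids the bending of the membrane. It came from a list of other caveola genes, which was also written with earlier results of these data known, so its test is not independent of them. CAVIN2 (ENSSSCG00000026618) had 4.95, 5.21 and 4.40 TPM in the CON libraries and 1.04, 1.07 and 0.94 TPM in the CDCA libraries, with no overlap. The mean of CAVIN2 was 4.85 ± 0.41 TPM in CON and 1.02 ± 0.068 TPM in CDCA (SD, n = 3 each), a ratio of CON to CDCA of 4.77. CAVIN2 fell, with a log2 fold change of -1.54 (SE 0.10; limma, Benjamini-Hochberg FDR = 4.2e-05). Within a library, CAVIN2 stood at 0.109, 0.12 and 0.113 times the level of CAV1 in CON and at 0.0809, 0.12 and 0.0785 times in CDCA, ranges that overlap.

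The PACSINs were weakly listed. PACSIN2 (ENSSSCG00000000036), the F-BAR protein of the caveola neck, had 1.49, 1.18 and 2.46 TPM in the CON libraries and 2.62, 2.03 and 2.11 TPM in the CDCA libraries. CON library 3 lay inside the CDCA range, and the log2 fold change was 0.29 (SE 0.19), with 0.14 without CON library 2 and 0.48 without CON library 3. PACSIN3 (ENSSSCG00000013244), the relative found mainly in muscle, had 0.80, 0.83 and 0.81 TPM in CON and 0.73, 0.73 and 0.92 TPM in CDCA. PACSIN3 was under the limit for testing, and its groups overlapped.

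Of the 10 genes, 7 passed the filter on low values, EHD2 and EHD3 through the CON group alone, so that EHD2 had to differ. EHD2 and CAV1 were called lower by the rule of an FDR under 0.05 and a log2 fold change over 1 in size, beside 3.9% of all tested genes. CAV2 and CAVIN1 had an FDR under 0.05 at a smaller fold, CAVIN1 not under each alternative, so that 4 were lower by the FDR alone, beside 23.9% of all tested genes. EHD2, CAV1, CAV2 and CAVIN1 did not overlap, with the CDCA libraries all lower, as in 27.8% of all tested genes, and 0 did not overlap with the CDCA libraries all higher, as in 33.7%. Since the contrast was known when the genes were chosen, nothing is read from these counts or from the other counts of these genes that follow. By limma, 0 were called higher, beside 3.51% of all tested genes, and 0 were higher by the FDR alone, beside 29.3%. At an unadjusted p under 0.05, 4 had a negative and 0 a positive fold change, beside 26.7% and 32.3% of all tested genes. Over all tested genes, 340 were called lower and 306 higher, and the median log2 fold change was 0.05. When the TPM were rescaled to 1000000 with the mitochondrial mRNAs kept, 481 were called lower and 523 higher, and that median was 0.08. When the TPM were rescaled without the mitochondrial mRNAs, 669 were called lower and 367 higher, and that median was -0.07.

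**Figure D2:**
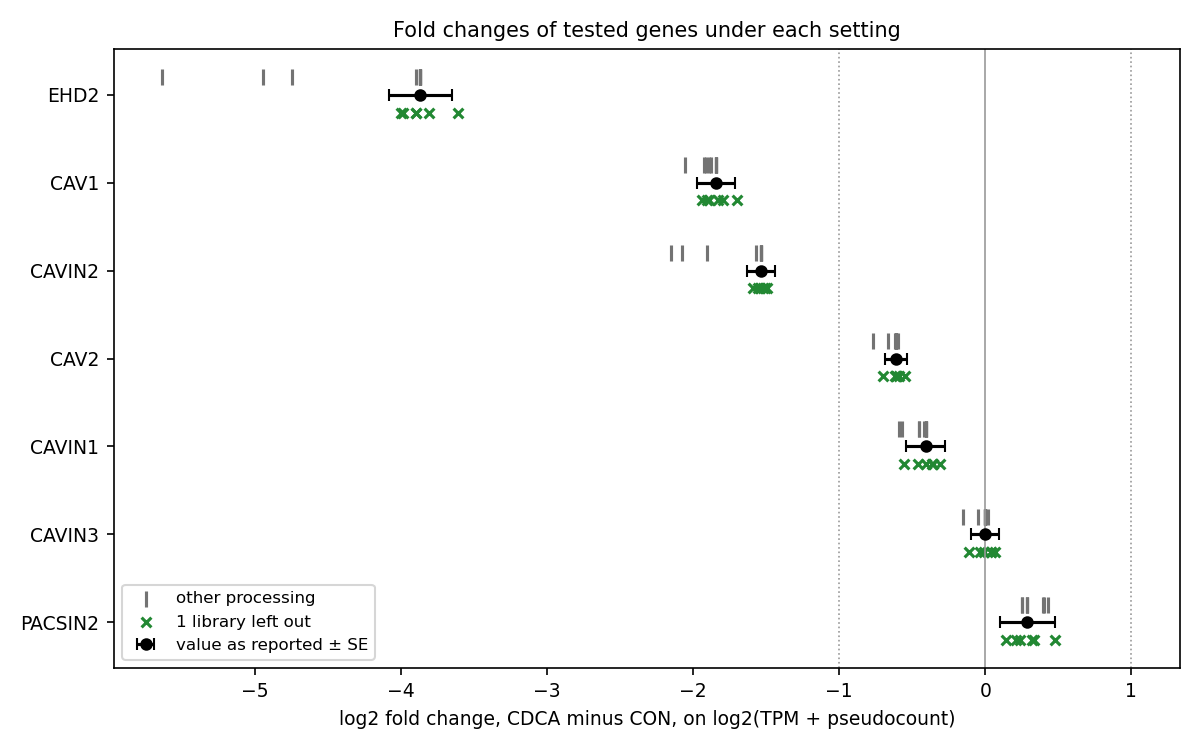
The log2 fold change between CDCA and CON (x axis, log2 of TPM plus a pseudocount) of 6 of the chosen genes and of CAVIN2; black points are the reported values with their SE, grey ticks are other processing settings and green crosses are fits without 1 library. The values run from -3.87 for EHD2 through -1.84 for CAV1 to 0.29 for PACSIN2, and the values of CAVIN3 lie on both sides of 0.

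The order of the levels changed between the groups. In the CON group CAVIN3 (172 TPM) and CAV2 (139 TPM) came first with overlapping libraries, then CAV1 (42.6 TPM), EHD2 (19.9 TPM) and CAVIN1 (9.50 TPM), each separate from the next. EHD3, PACSIN2, PACSIN3 and EHD1 followed at means of 2.02, 1.71, 0.813 and 0.607 TPM, where EHD3 and EHD1 overlapped with the others, and EHD4 came last. In the CDCA group CAVIN3 (171 TPM), CAV2 (90.5 TPM), CAV1 (11.3 TPM), CAVIN1 (6.84 TPM), PACSIN2 (2.25 TPM) and PACSIN3 (0.793 TPM) each kept their libraries apart from the next, and EHD2 came only then. PACSIN3 and EHD2 nearly met there, at 0.73 and 0.72 TPM. Summed over the 10 genes, the level was 388 ± 18 TPM in CON and 283 ± 6.4 TPM in CDCA (SD, n = 3 each).

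Ratios within a library do not depend on how that library was scaled, and they show which genes of the caveola moved apart. For each CAV1 transcript there were 0.418, 0.500 and 0.485 of EHD2 in the CON libraries. In the CDCA libraries the ratio of EHD2 to CAV1 was 0.0560, 0 and 0.0576, below every CON ratio. The mean ratio in CDCA was 0.0810 of that in CON, and it ran from 0.0599 to 0.122 with each library left out.

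CAV1 was also lower relative to its partner CAV2 in every CDCA library. The ratio of CAV1 to CAV2 was 0.298, 0.303 and 0.318 in the CON libraries. In the CDCA libraries it was 0.141, 0.0994 and 0.133, below every CON value. CAVIN3, in contrast, stood at 3.22, 4.32 and 4.63 times the level of CAV1 in CON. The same ratio was 13.3, 19.97 and 13.5 in CDCA, a mean of 15.6 ± 3.8 beside 4.06 ± 0.74 (SD, n = 3 each), while the level of CAVIN3 itself overlapped between the groups. The ratio of CAVIN1 to CAV1 was 0.224, 0.251 and 0.191 in CON and 0.495, 0.755 and 0.617 in CDCA. The RNA of the caveola genes was thus in different proportions in the groups, and protein was not measured in these libraries.

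**Figure D3:**
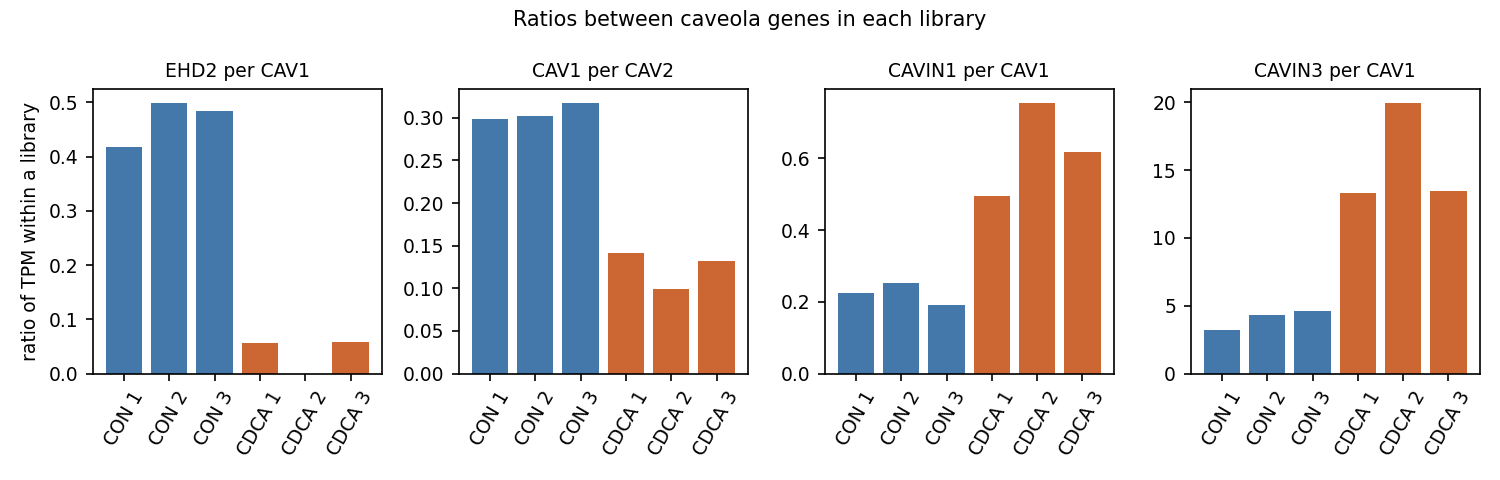
Ratios of TPM within each library (y axes, linear from 0) for EHD2 per CAV1, CAV1 per CAV2, CAVIN1 per CAV1 and CAVIN3 per CAV1; each bar is 1 library, blue for CON and orange for CDCA. The first and second ratios are lower in every CDCA library (EHD2 per CAV1 at most 0.0576 beside at least 0.418) and the other ratios are higher in every CDCA library.

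Other endocytic genes were taken from 5 lists to see how the machinery around the EHD proteins and caveolae stood. Of 96 genes listed, 6 had no ID under that name and 73 passed the filter. By limma, 2 were called higher and 1 was called lower, beside 3.51% and 3.9% of all tested genes. By the FDR alone, 24 were higher and 11 lower, beside 29.3% and 23.9%. The median log2 fold change of the 73 was 0.15, beside 0.05 for all tested genes.

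The list of 9 other caveola coat and neck genes also held flotillins and a receptor, which are not caveola coat proteins. In this list 4 genes were tested and CAVIN2 was the gene called lower. The other tested genes were DNM2, the dynamin that cuts the membrane neck, with a log2 fold change of 0.05 (limma, Benjamini-Hochberg FDR = 0.57), the flotillin FLOT2 with -0.27 (FDR = 0.026) and the receptor ROR1 with 0.09 (FDR = 0.52). CAV3, CAVIN4 and PACSIN1, known from muscle and brain, and NOSTRIN and FLOT1 were under the limit for testing.

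Of the 23 tested genes of endocytic recycling, where EHD1, EHD3 and EHD4 act, limma called 0 higher and 0 lower. At a limma FDR under 0.05, 6 of them were higher and 3 lower, beside 29.3% and 23.9% of all tested genes. At an unadjusted p under 0.05, 11 of them had a positive and 3 a negative fold change, beside 32.3% and 26.7% of all tested genes, and each of these genes of the list had a log2 fold change under 1 in size. The largest belonged to EHBP1, an EHD-binding protein that ties the recycling machinery to actin. EHBP1 had 4.31, 6.31 and 2.24 TPM in the CON libraries and 7.61, 8.05 and 11.19 TPM in the CDCA libraries, with no overlap. Its log2 fold change was 0.97 (SE 0.30; limma, Benjamini-Hochberg FDR = 0.031). With 1 library left out, the log2 fold change of EHBP1 ran from 0.66 without CON library 3 to 1.24 without CON library 2. Its limma FDR ran from 0.013 to 0.098 with 1 library left out and from 0.017 to 0.079 under the other settings, so it was not under 0.05 in each. RAB11A, the small GTPase of recycling endosomes, was at 292 ± 19 TPM in CON and 295 ± 4.7 TPM in CDCA (SD, n = 3 each), a log2 fold change of 0.02 (limma, Benjamini-Hochberg FDR = 0.80). RAB11A and SNAP29, ARF6, RAB8B, SNX3, CLTA, CLTB, CLTC, AP2S1 and VPS35 here and below were picked after their values were seen.

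SNAP29, a SNARE protein that binds EHD1, had the next largest change of this list, from 8.36 TPM in CON to 17.3 TPM in CDCA (log2 fold change 0.97; limma, Benjamini-Hochberg FDR = 1e-04). ARF6, a GTPase of recycling to the surface, had means of 85.4 and 112 TPM (log2 fold change 0.38, limma, Benjamini-Hochberg FDR = 0.00035). RAB8B, a GTPase of transport to the surface, went the other way, with means of 16.5 and 10.3 TPM (log2 fold change -0.63, limma, Benjamini-Hochberg FDR = 0.0011).

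In the clathrin coat list, 17 genes were tested and AP2B1 was called higher. AP2B1, the beta subunit of the AP2 adaptor that links clathrin to cargo, had 7.80, 3.12 and 2.60 TPM in the CON libraries and 19.54, 19.33 and 23.74 TPM in the CDCA libraries. The groups were separate, and CON library 1 stood above the other CON libraries. For AP2B1 the log2 fold change was 2.10 (SE 0.32; limma, Benjamini-Hochberg FDR = 0.0018), and it ran from 1.85 to 2.50 with each library left out. The median of the list was -0.02, and by the FDR alone 4 of its genes were higher and 3 lower, beside 29.3% and 23.9% of all tested genes. CLTC, the clathrin heavy chain, had a log2 fold change of 0.65 (limma, Benjamini-Hochberg FDR = 0.0042). The gene ID listed as the light chain CLTB had -0.53 (FDR = 0.00036) and AP2S1, the small subunit of AP2, had -0.42 (FDR = 0.0044) in the same limma fit with Benjamini-Hochberg adjustment. A separate list of gene IDs names that first ID NOP16, so its value may not be that of a clathrin light chain. It is counted among the 3 lower genes. CLTA, the other light chain, had means of 142 and 137 TPM.

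In the list of retromer and recycling sorting nexins, 15 genes were tested and WASHC1 was called higher. WASHC1, a subunit of the WASH complex that builds actin on endosomes, had 1.25, 1.87 and 1.12 TPM in the CON libraries and 3.14, 4.20 and 4.70 TPM in the CDCA libraries. The log2 fold change of WASHC1 was 1.05 (SE 0.17; limma, Benjamini-Hochberg FDR = 0.0022), just over the limit, and it was 0.97 without CON library 3 and 0.96 without CDCA library 3. SNX3, a sorting nexin of the retromer pathway, had means of 22.3 and 38.0 TPM (log2 fold change 0.74, limma, Benjamini-Hochberg FDR = 2.3e-05). VPS35, the core of retromer, was under the limit for testing.

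Among the membrane-bending F-BAR, endophilin and dynamin genes, relatives of the PACSINs and EHD proteins, 14 were tested and limma called 0. At an unadjusted p under 0.05, 7 of the 14 had a positive and 2 a negative fold change, beside the 32.3% and 26.7% of all tested genes. The largest was that of SH3GLB1, an endophilin of mitochondria and autophagy, with 53.36, 54.72 and 54.37 TPM in the CON libraries and 93.26, 92.01 and 96.77 TPM in the CDCA libraries. Its log2 fold change was 0.78 (SE 0.037; limma, Benjamini-Hochberg FDR = 1.4e-05), under the limit for a call.

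**Figure D4:**
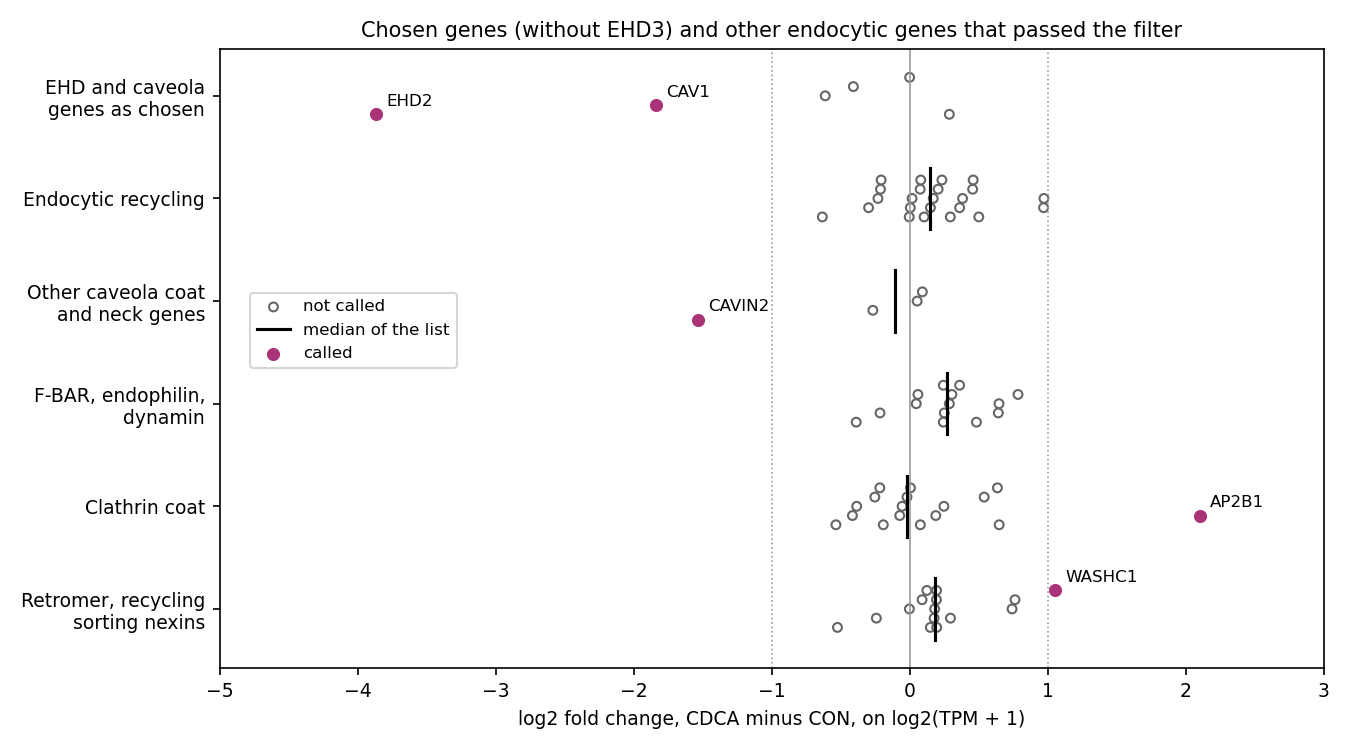
The log2 fold change between CDCA and CON (x axis, log2(TPM + 1)) of the chosen genes that passed the filter, without EHD3, and of the tested genes of the 5 endocytic lists; filled points were called, open points were not, and black bars are list medians. AP2B1 (2.10) and WASHC1 (1.05) lie above 1, CAVIN2 (-1.54) lies below -1, and the list medians run from -0.11 to 0.27.

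Caveolae are most abundant in endothelial cells, adipocytes, muscle and fibroblasts, so marker genes of these cells and of leukocytes were read beside the caveola genes. The summed level of the 5 endothelial markers was 2.22 to 2.80 TPM in CON and 1.96 to 2.43 TPM in CDCA. Within it PECAM1 was 1.66 to 2.14 TPM in CON and 1.12 to 1.33 TPM in CDCA, while KDR went the other way, at 0.38 to 0.51 TPM in CON and 0.64 to 0.84 TPM in CDCA. CDH5, VWF and TEK were at most 0.17 TPM in any library. The 5 fibroblast markers summed to 1.27 to 1.78 TPM in CON and 0.97 to 1.14 TPM in CDCA, and PDGFRA and DCN were at or near 0. The sum was mostly COL1A1, at 0.72 to 0.94 TPM in CON and 0.54 to 0.73 TPM in CDCA, and COL1A2, at 0.54 to 0.80 TPM in CON and 0.22 to 0.52 TPM in CDCA. PDGFRB was at 0.01 to 0.02 TPM in CON and 0.04 to 0.08 TPM in CDCA. The 4 smooth muscle markers summed to at most 0.37 TPM and the 4 adipocyte markers to at most 0.03 TPM. The part of such cells in the caveola results was not tested. The 3 leukocyte markers summed to 0.41 to 1.32 TPM in CON and 4.85 to 5.97 TPM in CDCA through CD68, a lysosomal protein, while PTPRC was at most 0.01 TPM. The 7 epithelial markers listed in the table summed to 624 to 648 TPM in CON and 1182 to 1322 TPM in CDCA, mostly through CLDN4, whose part in the results was not tested.

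Among the tested genes with a symbol and outside the 10, those with a profile over the 6 libraries most like that of EHD2 were HELLS, COX1, COX3, TK1 and COX2. Likeness was the root mean square difference between the genes in log2(TPM + 1), after the CON mean of each gene was subtracted. The order of these genes followed their log2 fold changes, from -3.25 for HELLS to -2.41 for COX2, so this likeness largely reflects the size of the difference between the groups. HELLS, a chromatin remodeller of dividing cells, was the nearest at 0.610, with 7.61, 8.76 and 13.22 TPM in the CON libraries and 0.09, 0.27 and 0 TPM in the CDCA libraries. COX1, COX3 and COX2, which mitochondrial DNA encodes, were at 0.762, 0.860 and 1.05, and TK1, the thymidine kinase of S phase, was at 0.967. CAV1 was at 1.44 from EHD2, and 41 tested genes were nearer, a count that takes in genes without a symbol and EHD2 itself. CAVIN3 was at 2.75 and PACSIN2 at 2.95, the least like EHD2 of the 7 tested among the 10 chosen genes.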

How the data were processed

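Total RNA of 3 CON and 3 CDCA libraries was sequenced on an Illumina instrument. RSEM was the authors' quantifier, and the deposited unit is TPM, given for 63041 transcripts of 31908 Ensembl pig gene IDs with no counts. The submitters' processing notes name Bowtie 0.12.2 and mm10, a mouse build, while the IDs are those of pig genes, so no coordinates were used and neighbours came from the RefSeq gene order of Sscrofa11.1. A gene's TPM is the sum over its listed transcripts. The reads behind each value cannot be read from the TPM, and the study's read totals per library were not used here. Genes missing from the listed transcripts can be understated.

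Groups were taken from the labels. CDCA was compared with CON in R 4.3.3 by limma 3.58.1 (lmFit, then trended eBayes) on log2(TPM + 1). The 8708 genes whose mean over all 6 libraries reached 1 TPM were tested, and their p-values were adjusted by Benjamini-Hochberg. A gene was called at an FDR under 0.05 and a log2 fold change over 1 in size. The edgeR test of the study needs counts and was not used. The steps were tested on simulated data.

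The members and lists were chosen with earlier results of these data known. The lists held genes of endocytic recycling, other caveola genes, F-BAR, endophilin and dynamin genes, clathrin coat genes, and retromer genes. Named were all members, every called gene of a list or else its largest change, and the 5 genes most like EHD2; other names were picked after their values were seen. The alternatives were a pseudocount of 0.1 TPM, no filter or a mean of at least 5 TPM, scaling by median ratios, rescaling to 1000000 TPM with or without the 13 mitochondrial mRNAs, the highest listed transcript, no trend, a replicate block, no fold limit, and each library left out in turn. The leave-one-out and highest transcript values of the ratios were added after the data were seen.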

Additional observations from a re-analysis of the deposited data

How the results depend on the processing

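EHD2, CAV1 and CAVIN2 kept their direction under every alternative run. Over them, the log2 fold change ran from -5.63 (pseudocount of 0.1 TPM) to -3.61 (1 library left out) for EHD2, from -2.05 to -1.70 for CAV1, and from -2.15 to -1.49 for CAVIN2. CAVIN3 changed sign when rescaled to 1000000 TPM (0.0208) and with a library left out, where it ran from -0.1113 to 0.067 and was above 0 without CON library 2, CON library 3 or CDCA library 3. The count of members called lower was 4 with no fold limit and 2 to 3 with a library left out, where the third was EHD3 once the CON library listing it at 0 was removed; the members were chosen on this contrast, so nothing is read from these counts. Other endocytic genes called lower numbered 0 at a mean of at least 5 TPM, where CAVIN2 was not tested, and 11 with no fold limit. Those called higher numbered 4 with a pseudocount of 0.1 TPM, 1 at a mean of at least 5 TPM, 4 after rescaling with the mitochondrial mRNAs (2 without them), 24 with no fold limit and 1 to 3 with a library left out. Of all genes, 481 were called lower after rescaling with the mitochondrial mRNAs, 669 after rescaling without them, and 2085 with no fold limit. Those called higher were 509 with a pseudocount of 0.1 TPM, 197 at a mean of at least 5 TPM, 523 after rescaling with the mitochondrial mRNAs (367 without them) and 2550 with no fold limit. Unless given here, the cause was not tested.

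With the replicate number as a replicate block, limma called 2 members lower and 0 higher, 1 other endocytic gene lower and 2 higher, and 343 genes lower and 309 higher in all. Libraries of the same number did not deviate together (correlations of -0.04, -0.09 and -0.05), so they share only a number. TPM without counts limits how precisely genes near 0, such as EHD1, EHD3 and EHD4, can be compared.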

Other observations

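The gene next to EHD2 in the RefSeq order of Sscrofa11.1, NOP53, which encodes a nucleolar protein of ribosome assembly, went the other way from EHD2. NOP53 was picked after its values were seen. Its levels were 30.39, 33.60 and 35.23 TPM in the CON libraries and 67.37, 73.23 and 66.42 TPM in the CDCA libraries, with no overlap. NOP53 rose, with a log2 fold change of 1.04 (SE 0.067; limma, Benjamini-Hochberg FDR = 4.6e-05). BICRA, the neighbour of EHD2 on its other side, was at most 0.44 TPM in any library.

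NABP1, the gene beside CAVIN2 and a binder of single-stranded DNA, had 6.90, 6.55 and 6.55 TPM in the CON libraries and 4.46, 4.23 and 4.88 TPM in the CDCA libraries. Its log2 fold change was -0.47 (SE 0.075; limma, Benjamini-Hochberg FDR = 0.002), smaller in size than the -1.54 of CAVIN2. TMEFF2, on the other side of CAVIN2, was at most 0.17 TPM in any library.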
